A study of Sus scrofa with 24 samples.

Results

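Cultured pig bronchial epithelium that had met flagellin for 2 h after preincubation with SB203580 was compared with epithelium that had met neither agent. The comparison takes 8 of the 24 libraries of the series, 4 from cultures given SB203580 plus flagellin and 4 from cultures given PBS, matched by the replicate number in their names, and 25880 pig genes of the 31868 features in the deposited count table. All cells came from the bronchi of wild-type pigs aged 1 month, were freed by enzymatic digestion, grown to confluence on collagen-coated membranes and then kept at an air-liquid interface, with the upper surface in air and medium below. The PBS cultures were preincubated for 1 h with DMSO, the solvent of the inhibitor, and then received PBS for 2 h. The cultures of the other group were preincubated for 1 h with 20 µM SB203580 and then received 100 ng/ml flagellin for 2 h. Values from the 4 libraries given DMSO and flagellin for 2 h, and from the same PBS and SB203580 plus flagellin groups at 24 h, are set beside the comparison. No group given SB203580 alone was analysed here, so a difference from PBS may come from flagellin, from the inhibitor or from both, and these cannot be told apart within the comparison. The labels do not say which replicates were separate animals or cultures, so p-values here rest on library-to-library spread, some of which may be technical.

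Flagellin is the protein that builds the bacterial flagellum, and airway epithelial cells sense it through the receptor TLR5. TLR5 recruits the adaptor MYD88 and kinases of the IRAK family, and the signal then divides. One arm frees the transcription factor NF-kB from its IκB inhibitors, and it induces chemokines, cytokines and a set of inhibitors that switch NF-kB off again. Another arm activates MAP kinases, among them p38, which acts on transcription factors through downstream kinases and also protects short-lived, AU-rich mRNAs from decay through the kinase MK2. SB203580 blocks the ATP site of p38α and p38β and also acts on some other kinases. The comparison addresses which genes still differed from the unstimulated state when flagellin was given in the presence of the inhibitor. Neither p38 activity nor any protein was measured.

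Total counts of the 8 libraries ranged from 26345945 to 35483693, with 15886 to 16464 genes detected. Levels are given as CPM, counts scaled to the TMM-adjusted library size. A count of 0 allows up to 3 counts, which in these libraries was 0.0843 to 0.112 CPM and covers counting error only; it is called the floor below. The 8 matched markers, of 11, of basal cells, the stem cells of this epithelium, had a mean log2 CPM of 7.28 to 7.55 in PBS. With SB203580 plus flagellin the mean was 7.48 to 7.64. The basal keratins KRT5, KRT14 and KRT17 had no matched gene. Levels were uneven, from COL17A1 at 3940 to 8630 CPM to KRT15 at 0.577 to 2.54 CPM over the 8 libraries. Ciliated cell markers were low, at a mean log2 CPM of 0.47 to 1.94 and 0.65 to 1.42. The club cell gene SCGB1A1 reached at most 14.3 CPM. Some other secretory genes were abundant. SCGB3A2 was at 97.7 to 1000 CPM in PBS and 114 to 426 CPM in the treated libraries. WFDC2 was at 328 to 1040 and 393 to 899 CPM. CYP2F1 reached at most 0.186 CPM, and MSMB was at 12 to 15.2 CPM over the 8 libraries. Leukocyte markers were mixed. PTPRC lay at 0 to 0.035 CPM, and CD3E and TYROBP were at 0 in all 8 libraries. LCP1 was at 12 to 64.2 CPM, CD14 at 6.97 to 68.4 CPM and CD68 at 5.36 to 13.1 CPM over the same libraries. Replicates 1 and 2 differed from replicates 3 and 4 in both groups, for example in squamous markers (7.86 to 9.38 against 6.33 to 6.67). Within replicates 1 and 2, replicate 2 of PBS and replicate 1 of SB203580 plus flagellin stood apart. Their secretory markers were at 5.29 and 5.22, against 6.19 and 6.15 in the other libraries of those numbers.

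At 2 h, 228 of 14172 tested genes (1.61%) differed between SB203580 plus flagellin and PBS by edgeR's quasi-likelihood test at an adjusted p under 0.05. Of these, 120 were raised (0.847% of the tested genes) and 108 were lowered (0.762%). At such shares, a gene list of the sizes used below would often hold 0 or 1 call. The 2 directions had unlike sizes. Raised genes spanned log2 fold changes of 0.30 to 4.12 with a median of 0.78, and 53 of them rose at least 2-fold. Lowered genes spanned -0.88 to -0.26 with a median of -0.44, and none fell 2-fold. In 116 of the 120 raised genes and 107 of the 108 lowered genes, all 4 replicate numbers moved the same way. All 4 libraries of SB203580 plus flagellin lay above all 4 PBS libraries for 86 raised genes, where 2.11% of all tested genes had this order. They lay below for 65 lowered genes, where 2.15% of all tested genes did. The same libraries chose these genes, so neither the shared direction nor the order is separate support for the calls. The lowered genes were the more abundant, with a median PBS level of 57.2 CPM, against 22.5 CPM for raised genes and 22.3 CPM for all tested genes.

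**Figure D1:**
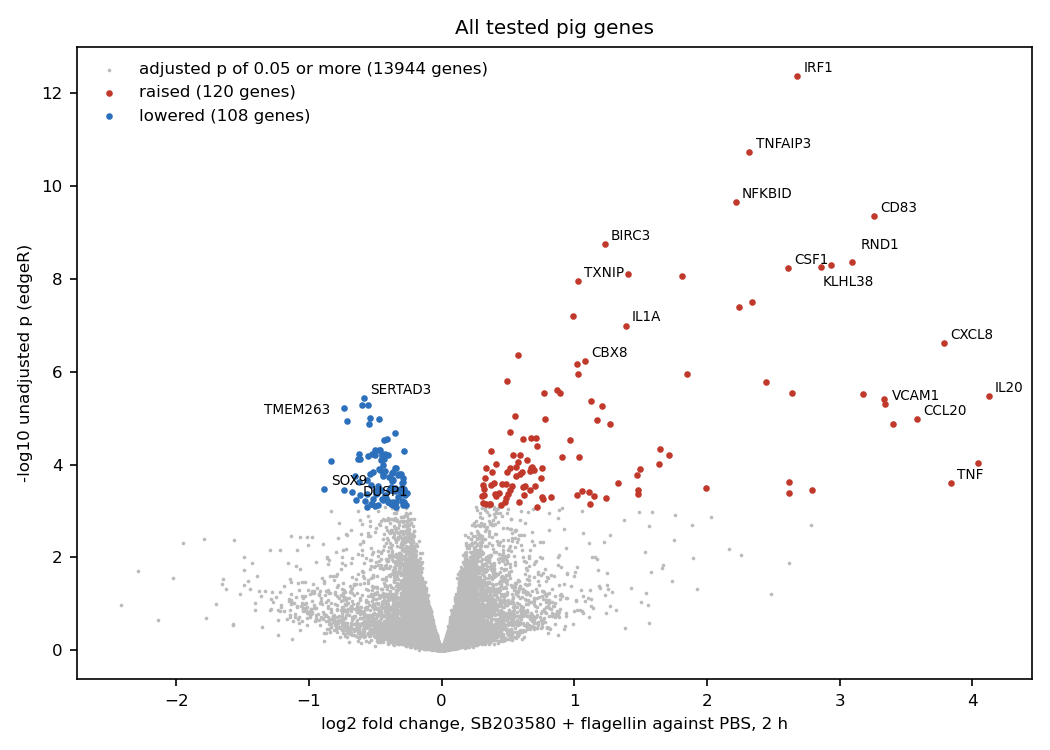
Each point is a tested pig gene. The horizontal axis gives its log2 fold change at 2 h (SB203580 plus flagellin against PBS) and the vertical axis the negative log10 of its unadjusted p from edgeR; the 120 raised genes (red) reach 4.12 while the 108 lowered genes (blue) stop at -0.88.

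The number of calls depended on a term for the difference between replicates 1 and 2 and replicates 3 and 4. The fit used here has the replicate number at each time as a block. Without the block, 19 genes were raised and 7 lowered. With a term for those 2 sets of replicates in place of the number, 142 were raised and 139 lowered, 213 of the 228 calls among them. Of the 58 genes with a call that the text follows as named genes, 18 were also called without the block. Those raised were IRF1, TNFAIP3, NFKBID, CD83, BIRC3, CBX8, CSF1, CXCL8, IKBKE, IL1A, KLHL38 and TNFAIP2, and those lowered were CCDC126, SERTAD3, SLC30A1, SOCS6, TMEM263 and TOB1. Every one of the 58 had the same sign in replicates 1 and 2 alone as in replicates 3 and 4 alone, although those libraries are also the ones that chose them.

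Neutrophil and lymphocyte chemokines, secreted proteins that draw leukocytes to the epithelium, were among the genes raised most. Of 15 tested chemokines, 4 rose and none fell, with a median log2 fold change of 0.34 over the list against 0.01 over all tested genes. The number called was 1 both with no replicate block and from the 8 compared libraries alone. CXCL8, the main neutrophil attractant, was at 51.4, 46.1, 22.6 and 13.2 CPM in PBS replicates 1 to 4 and at 326, 395, 454 and 567 CPM with SB203580 plus flagellin. All 4 treated libraries lay far above all 4 PBS libraries, and the log2 fold change was 3.78 (SE 0.408, adjusted p = 0.000198). CXCL2, a related neutrophil attractant, was at 88.4, 30.9, 8.47 and 7.12 CPM in PBS and at 286, 314, 154 and 192 CPM in the treated libraries. Its PBS level was far higher in replicate 1 than in replicates 3 and 4, yet the groups did not overlap, and it rose by 3.34 (SE 0.453, adjusted p = 0.00172). CCL20, which attracts dendritic cells and lymphocytes through CCR6 and was named here by its position, was at 29.7, 16.2, 2.59 and 2.24 CPM in PBS and at 140, 118, 75.9 and 114 CPM in the treated libraries. It rose by 3.58 (SE 0.53, adjusted p = 0.00346), again with no overlap.

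The remaining chemokines moved less or more unevenly. CXCL16, a membrane-bound chemokine named by position, was at 156 to 189 CPM in PBS and 213 to 249 CPM in the treated libraries, a rise of 0.34 (SE 0.067, adjusted p = 0.018). That call was lost without PBS replicate 3 (adjusted p = 0.132) and in 5 of the 8 fits that left out 1 library. AMCF-II, a pig neutrophil chemokine, was at 20.1, 4.13, 4.8 and 3.32 CPM in PBS and 19.9, 27.7, 30 and 35.6 CPM in the treated libraries. Replicate 1 was at the same level in both groups and the other 3 were higher, and the gene missed the threshold (log2 fold change 2.03, adjusted p = 0.0669). CCL2, a monocyte attractant, also missed it (1.56, adjusted p = 0.0843). CXCL8, CXCL2 and AMCF-II belong to a family of like sequences, and how the counting divided shared reads among them is not given in the sources used here.

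Cytokines and growth factors for leukocytes formed the group with the highest median, 1.24 over 17 tested members, of which 6 rose and none fell. The number called was 2 with no replicate block and 0 from the 8 compared libraries alone. CSF1, the growth factor of macrophages, was at 14, 12.4, 12.6 and 19.1 CPM in PBS and at 52.3, 54.8, 128 and 154 CPM with SB203580 plus flagellin. The groups were far apart, and the rise was 2.61 (SE 0.222, adjusted p = 9.34e-06). IL1A, an alarm cytokine stored in epithelial cells, was at 45.6, 47.7, 98.1 and 61.7 CPM in PBS. In the treated libraries it was at a nearly even 149, 152, 173 and 164 CPM, a rise of 1.39 (SE 0.15, adjusted p = 8.95e-05). LIF, a cytokine of the IL-6 family, was at 19, 6.35, 3.89 and 3.8 CPM in PBS and at 73.7, 77.9, 16.6 and 28.1 CPM in the treated libraries. The lowest treated library lay below the highest PBS library, but within each replicate number LIF was higher, and it rose by 2.64 (SE 0.353, adjusted p = 0.00146).

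TNFSF15, a TNF-family ligand named by position, rose by 1.65 (SE 0.291, adjusted p = 0.0111). Its PBS libraries held 4.6 to 6.09 CPM and its treated libraries 8.66 to 25.9 CPM, without overlap. IL20, a cytokine that acts on epithelium, had the largest fold change of all calls, 4.12 (SE 0.592, adjusted p = 0.00156), but at very low levels. It was at 0.26, 0.25, 0 and 0 CPM in PBS and at 3.33, 4.37, 0.281 and 1.36 CPM in the treated libraries, so the PBS values lay within a few counts of 0. TNF, an early inflammatory cytokine named by position, was at 3.68, 0.469, 0.245 and 0 CPM in PBS and at 29.9, 35.1, 0.365 and 1.59 CPM in the treated libraries. Its rise of 3.84 (SE 0.789, adjusted p = 0.0267) came with overlapping groups and rested on replicates 1 and 2 for its level, and it was lost in 6 of the 8 fits that left out 1 library (adjusted p = 0.106 without PBS replicate 2). Other members did not pass, among them CSF3 at 0.73 (adjusted p = 0.67), IL6 at 0.60 (adjusted p = 0.611) and CSF2 at 0.73 (adjusted p = 0.25). IL1B did not pass the filter on low counts and was not tested.

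**Figure D2:**
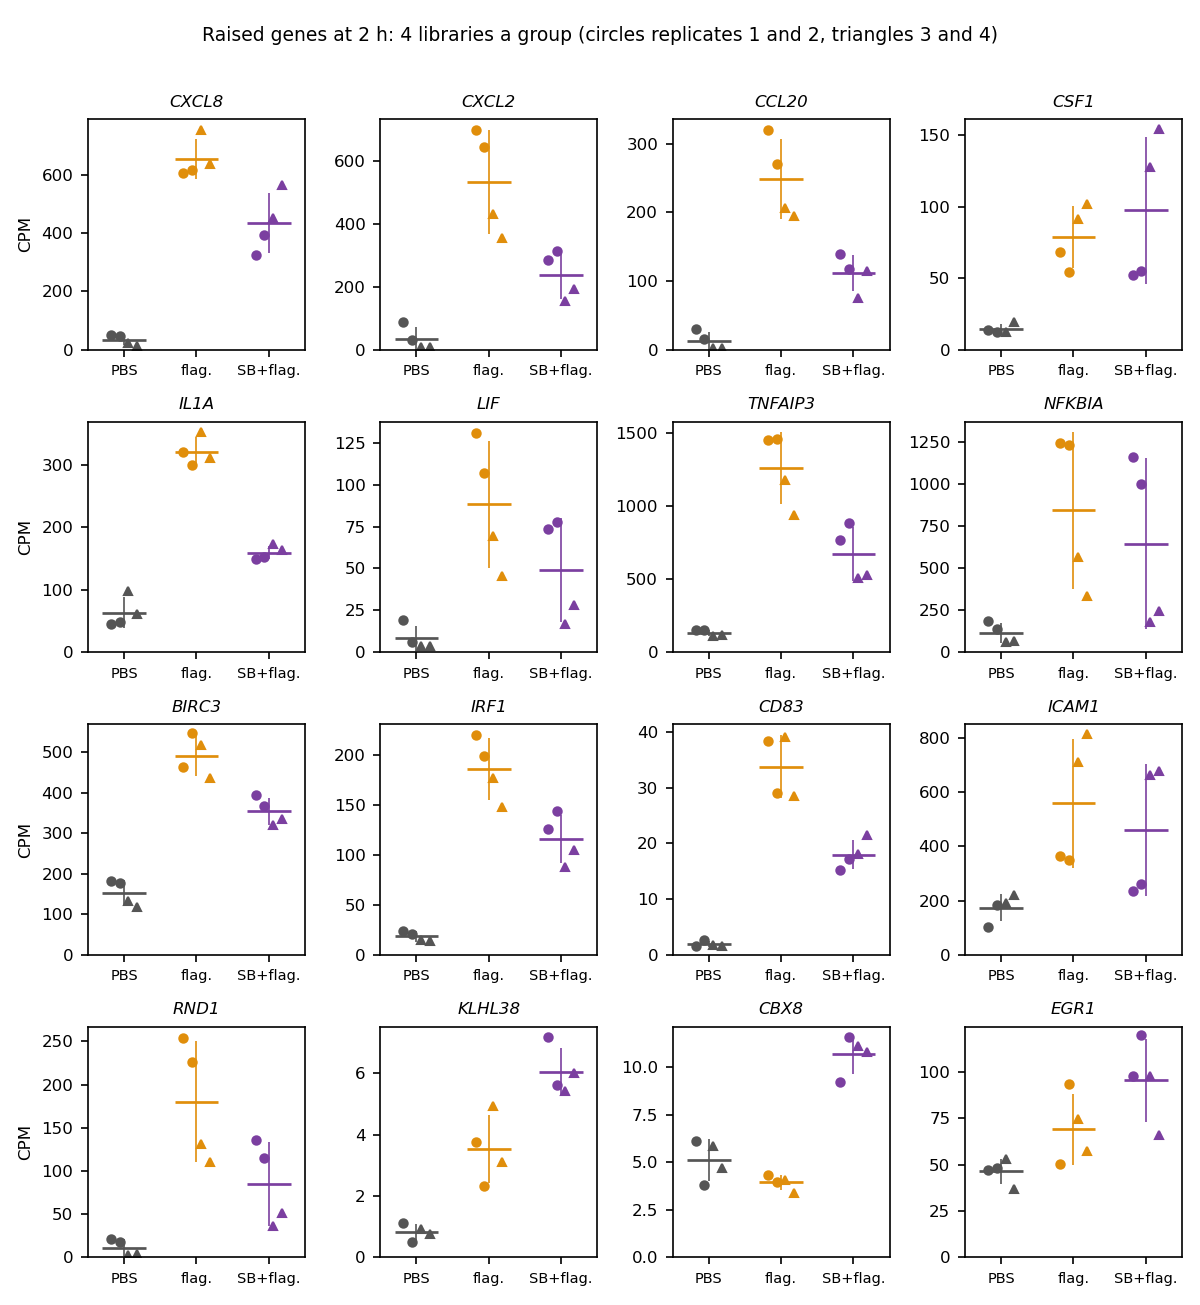
Level in CPM (linear axis from 0) of 16 raised genes in each of the 4 libraries given PBS, flagellin (flag.) or SB203580 plus flagellin (SB+flag.) for 2 h, with the mean as a line and 1 SD as a bar. TNFAIP3 and IRF1 lie between the PBS and flagellin libraries with the inhibitor, while CBX8 is high with the inhibitor only.

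The list of NF-kB feedback genes, mostly inhibitors that NF-kB induces together with some survival and adaptor genes, had the most calls, 9 raised and 0 lowered of 21 tested, with a median of 0.65. The number called was 5 both with no replicate block and from the 8 compared libraries alone. TNFAIP3, which encodes A20, a ubiquitin-editing enzyme that shuts off NF-kB signalling, was at 152, 151, 109 and 116 CPM in PBS and at 764, 881, 505 and 527 CPM in the treated libraries. Replicate spread was small beside the difference, and it rose by 2.32 (SE 0.14, adjusted p = 1.3e-07). NFKBIA, which encodes the inhibitor IκBα, was at 187, 137, 63.6 and 68.2 CPM in PBS and at 1160, 1000, 177 and 244 CPM in the treated libraries. It was higher within every replicate number, with a log2 fold change of 2.74 in replicates 1 and 2 and 1.69 in replicates 3 and 4, and 2.24 over all (SE 0.221, adjusted p = 4e-05). The difference between those 2 values was not tested. NFKBID, a nuclear IκB protein, was at 6.69, 4.57, 3.68 and 5.03 CPM in PBS and at 29.4, 35.2, 14.8 and 17.8 CPM in the treated libraries, a rise of 2.22 (SE 0.158, adjusted p = 1.05e-06) without overlap. TNFAIP2, a TNF-induced gene named for that response, was at 90.9, 46.9, 33.5 and 34 CPM in PBS and at 342, 359, 297 and 412 CPM in the treated libraries. It rose by 2.86 (SE 0.24, adjusted p = 9.34e-06).

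Further members of this group rose by smaller amounts. ZC3H12A, which encodes the ribonuclease regnase-1 that degrades inflammatory mRNAs, went from 40.8 to 101 CPM in PBS to 136 to 288 CPM, a rise of 1.81 (SE 0.162, adjusted p = 1.09e-05). NFKBIZ, another nuclear IκB protein, rose by 1.85 (adjusted p = 0.000737). BIRC3, a ubiquitin ligase that protects from TNF-induced death, was at 183, 178, 133 and 118 CPM in PBS and 394, 368, 319 and 336 CPM in the treated libraries. This even rise measured 1.23 (SE 0.101, adjusted p = 4.97e-06). NFKBIE (1.41, adjusted p = 1.09e-05), another IκB protein, and TRAF2 (0.50, adjusted p = 0.0343), an adaptor of TNF receptors, complete the 9 that rose, and are named here after their values were seen.

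Of 12 NF-kB subunits and kinases tested, 4 rose and none fell, with a median of 0.25 (1 called with no replicate block, and 1 from the 8 libraries alone). MAP3K8, the kinase TPL2 that links NF-kB to the ERK pathway, was at 38.5, 21.3, 8.61 and 6.4 CPM in PBS and at 145, 137, 36.1 and 41.4 CPM in the treated libraries, a rise of 2.34 (SE 0.225, adjusted p = 3.43e-05). It was higher in each replicate number, by unequal amounts, and the level itself differed between replicates 1 and 2 and replicates 3 and 4. IKBKE, a kinase related to the IκB kinases, rose by 0.89 (adjusted p = 0.00146), NFKB2 by 0.71 (adjusted p = 0.00738) and RELB by 0.75 (adjusted p = 0.0233). RELB lost its call in 5 of the 8 fits that left out 1 library (adjusted p = 0.134 without PBS replicate 3).

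Further upstream is a list of Toll-like receptors and their signalling proteins, not all of them in the TLR5 pathway. Of 22 tested, 2 rose, where 0.847% of all tested genes did, and the median was -0.03. None was called with no replicate block, or from the 12 libraries of 2 h or the 8 compared libraries. They were IRAK2, a kinase-like protein that sustains TLR signalling, at 1.47 (SE 0.294, adjusted p = 0.0211), and TLR2, a receptor for bacterial lipoproteins, at 1.12 (SE 0.267, adjusted p = 0.0461). Both lost their call in 6 of the 8 fits that left out 1 library, with adjusted p = 0.133 and 0.238 without PBS replicate 3. TLR5 itself was scarce, at 0.93, 0.375, 0.875 and 0.958 CPM in PBS and at 0.721, 0.79, 0.983 and 1.04 CPM in the treated libraries. The groups overlapped, and its log2 fold change was 0.21 (SE 0.265, adjusted p = 0.797).

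Genes that let epithelium engage leukocytes rose in 5 of 12 tested cases and fell in none, with a median of 0.44 (1 called with no replicate block, and 2 from the 8 libraries alone). CD83, a surface protein of activated antigen-presenting and epithelial cells (chromosome 7, 10359211 to 10387002), was at 1.6, 2.63, 1.82 and 1.5 CPM in PBS and at 15.2, 17.2, 18.1 and 21.5 CPM in the treated libraries. Both groups were tight and far apart, and it rose by 3.26 (SE 0.241, adjusted p = 1.58e-06). ICAM1, the adhesion ligand of neutrophils, was at 103, 182, 191 and 219 CPM in PBS and at 236, 260, 661 and 679 CPM in the treated libraries. It rose by 1.27 (SE 0.202, adjusted p = 0.004), with its highest treated levels in replicates 3 and 4. VCAM1, an adhesion ligand of lymphocytes and monocytes, was at 2.01, 0.876, 0.035 and 0.12 CPM in PBS and at 9.44, 15.2, 1.52 and 2.77 CPM in the treated libraries. Its PBS values in replicates 3 and 4 lay near the floor, and it rose by 3.35 (SE 0.488, adjusted p = 0.00204). ICOSLG, a T cell costimulator named by position and outside the rule for named genes, rose by 0.96 (adjusted p = 0.00741), and CD40, a receptor for T cell help, by 0.55 (adjusted p = 0.00327). CD14, the co-receptor of lipopolysaccharide and the 1 leukocyte marker of 8 tested that was raised, rose by 1.24 (SE 0.281, adjusted p = 0.0389). The summed level of all leukocyte markers was 28.7 to 98.4 CPM in PBS and 39.4 to 134 CPM in the treated libraries, higher within each replicate number (98.4 and 134, 64.8 and 113, 28.7 and 39.4, 35.5 and 44.9), and 8 to 12 of the 19 matched markers were at 0 in a library. The part of leukocytes in these rises was not tested.

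Transcription factors were led by IRF1, an activator of interferon-type and inflammatory genes encoded on chromosome 2 from position 134776124 to 134783819, as the deposited table gives it, with no pig assembly named in the sources used here. IRF1 was at 24.3, 21.1, 14.5 and 13.5 CPM in PBS and at 126, 144, 87.9 and 105 CPM with SB203580 plus flagellin. Its rise of 2.68 (SE 0.126, adjusted p = 5.98e-09) had the smallest p of all tested genes. IRF1 was the 1 call among 30 tested interferon regulatory factors and interferon-stimulated genes, of which 25 had a log2 fold change above 0 (7273 of 14172 over all tested genes). The median of that list was 0.18. BATF2, a partner of IRF1, was at 0.209 to 1.23 CPM in PBS and 1.63 to 4.57 CPM in the treated libraries, a rise of 2.44 (SE 0.332, adjusted p = 0.000969).

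Immediate early genes, the first transcripts after a stimulus and often targets of MAP kinases, gave 3 calls. Of 29 tested, 2 rose and 1 fell, and the list was centred on 0. EGR1, a growth-factor-induced factor, was at 47.1, 47.9, 53 and 37.1 CPM in PBS and at 97.5, 120, 97.9 and 65.9 CPM in the treated libraries, a rise of 1.02 (SE 0.129, adjusted p = 0.000475). SNAI1, a repressor of epithelial genes, rose by 1.64 (SE 0.319, adjusted p = 0.0163) at 1.04 to 7.66 CPM, and lost its call in 3 of the 8 fits that left out 1 library (adjusted p = 0.0825 without PBS replicate 1). NR4A2, an orphan nuclear receptor, fell by 0.51 (adjusted p = 0.0403), and lost its call in 7 of those 8 fits (adjusted p = 0.155 without PBS replicate 1). FOS, a subunit of AP-1, was at 125, 79.9, 94.7 and 79 CPM in PBS and at 57, 56.5, 61.2 and 47.2 CPM in the treated libraries. Although the groups did not overlap, FOS missed the threshold (-0.77, SE 0.204, adjusted p = 0.079). JUNB was at -0.16 (adjusted p = 0.792).

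Genes of the p38 pathway itself showed no call among 22 tested, where 1.61% of all tested genes were called, and had a median of 0.07. MAPK14, which encodes p38α, was at 0.14 (SE 0.0861, adjusted p = 0.504) on the log2 scale, and MAPKAPK2, which encodes the p38 target MK2, was at 0.21 (SE 0.0772, adjusted p = 0.215). Transcript levels do not report the activity of these kinases. Of 15 genes that govern the decay of AU-rich mRNAs, ZC3H12A was the 1 call and the median was -0.14. ZFP36, which encodes the decay factor tristetraprolin, was at 302, 254, 148 and 155 CPM in PBS and at 362, 224, 121 and 112 CPM in the treated libraries. The groups overlapped (-0.16, adjusted p = 0.783). Of 11 prostaglandin genes none was called (median -0.14), and PTGS2, the inducible cyclooxygenase, was at -0.85 (SE 0.4, adjusted p = 0.37).

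Of 11 tested MAP kinase phosphatases, 1 rose and 1 fell. DUSP1, which removes the activating phosphates from p38 and JNK, was at 352, 274, 211 and 204 CPM in PBS and at 169, 141, 166 and 173 CPM with SB203580 plus flagellin. The treated libraries all lay below the PBS libraries, by more in replicates 1 and 2 (-1.02) than in replicates 3 and 4 (-0.28), a contrast that was not tested. DUSP1 fell by 0.64 (SE 0.15, adjusted p = 0.0405), and the call was lost in 6 of the 8 fits that left out 1 library (adjusted p = 0.169 without PBS replicate 1). DUSP10, which acts on the same kinases, was at 13.3 to 21.2 CPM in PBS and 21.3 to 24.2 CPM in the treated libraries, a rise of 0.62 (SE 0.135, adjusted p = 0.0306). It too was lost in 6 of those fits (adjusted p = 0.178 without PBS replicate 3). The 9 other tested members of this family were not called, and the median of the list was 0.02.

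Antimicrobial and acute-phase genes, effectors of airway defence, had 0 calls among 23 tested (1.61% over all tested genes), and a median of 0.10. LCN2, the iron-withholding protein lipocalin, had a log2 fold change of -0.09, and SAA3, an acute-phase protein named by position, one of 1.89 (adjusted p = 0.191). MUC5AC, the main secreted mucin and also named by position, was at -0.24. In all 3 genes replicate 1 of PBS was far above the other PBS libraries.

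Next are 3 raised genes outside these pathways. RND1 and KLHL38 were among the genes raised most, and CBX8 rose less. RND1, a regulator of the actin cytoskeleton, was at 21.6, 17.3, 2.98 and 3.56 CPM in PBS and at 136, 115, 36.3 and 51.3 CPM in the treated libraries. It rose by 3.10 (SE 0.254, adjusted p = 9.34e-06), higher within every replicate number from base levels that differed widely. KLHL38, a kelch-family protein, was at 1.12, 0.501, 0.911 and 0.748 CPM in PBS and at 7.18, 5.62, 5.42 and 6 CPM in the treated libraries, a rise of 2.93 (SE 0.258, adjusted p = 9.34e-06). CBX8, a chromodomain protein of the Polycomb group (chromosome 12, 2562335 to 2567624), was at 6.14, 3.79, 5.85 and 4.7 CPM in PBS and at 9.24, 11.6, 11.1 and 10.8 CPM in the treated libraries. It rose by 1.08 (SE 0.135, adjusted p = 0.000431) and was the 1 call among 18 tested Polycomb genes, whose median was 0.01.

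Single genes of other lists were called as well, where 1.61% of all tested genes were called. PFKFB4, which sets the pace of glycolysis, went from 16.9 to 19 CPM in PBS to 22 to 35.2 CPM (0.68, adjusted p = 0.00738). SOD2, the mitochondrial superoxide dismutase, rose by 0.60 (adjusted p = 0.0197), and PMAIP1, which encodes the pro-apoptotic protein NOXA, by 0.70 (adjusted p = 0.0187). With SOD2 as 1 call of 18 oxidant defence genes, PMAIP1 as 1 of 23 apoptosis and p53 targets and PFKFB4 as 1 of 19 glycolysis and hypoxia targets, none of these lists had a median beyond 0.12 from 0. SOD2 and PMAIP1 lost their calls without PBS replicate 3 (adjusted p = 0.134 for each) and in 6 and 4 of the 8 fits that left out 1 library. PLAUR, the urokinase receptor, was at 50.4, 69.9, 47.3 and 64.3 CPM in PBS and at 79.3, 79.2, 88.1 and 111 CPM in the treated libraries (0.63, SE 0.135, adjusted p = 0.0289, and 0.187 without PBS replicate 3). Its ligand PLAU had a log2 fold change of 0.46 (adjusted p = 0.274), and PLAUR was the 1 call of 15 tested genes of that system (median -0.01).

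**Figure D3:**
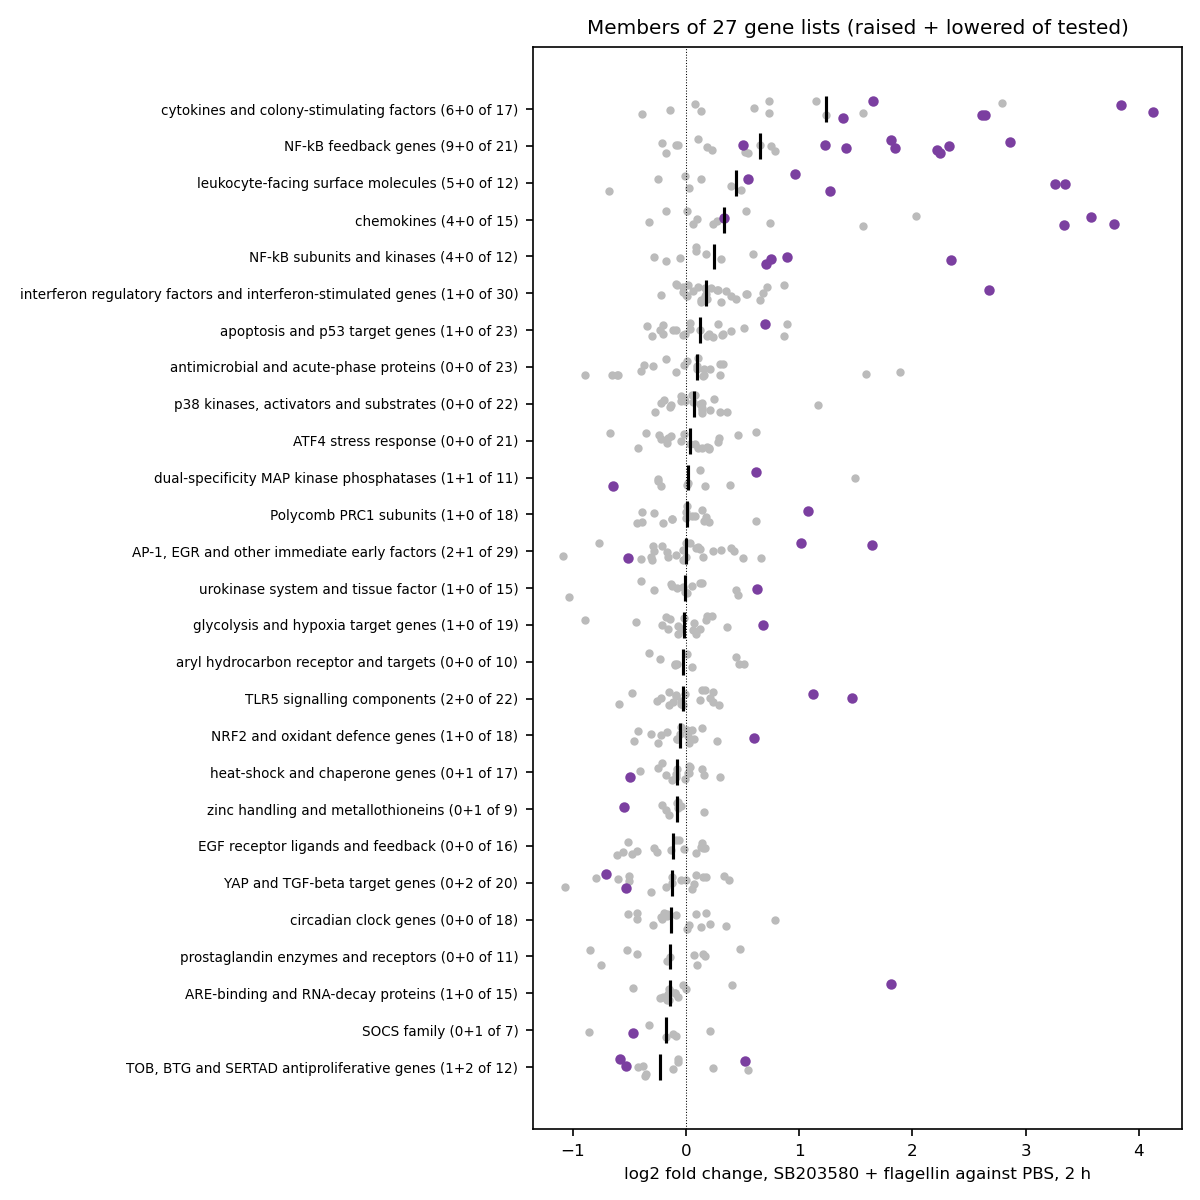
Log2 fold change (horizontal axis) of every tested member of 27 gene lists, with called genes in purple, other genes in grey and the list median as a black line. The cytokine, chemokine, leukocyte-facing and both NF-kB lists hold 4 to 9 calls each, none of them lower, while the other lists hold at most 3.

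From the 8 compared libraries alone, 0 of the 108 lowered genes were called, so these calls rest on spread estimated with the other libraries. Lowered genes are given first for 3 transcriptional regulators. SOX9, a transcription factor of airway progenitors, was at 55, 83.1, 81.3 and 59.3 CPM in PBS and at 54.2, 47, 27.2 and 26.4 CPM with SB203580 plus flagellin. Replicate 1 was at the same level in both groups, whereas replicates 3 and 4 were far lower, so that the difference was -0.44 in replicates 1 and 2 and -1.37 in replicates 3 and 4 (not tested against each other). Over all it fell by 0.88 (SE 0.192, adjusted p = 0.0312), and 6 of the 8 fits that left out 1 library lost the call (adjusted p = 0.176 without PBS replicate 3). FOXA2, a factor that maintains airway epithelial differentiation, was at 30.2, 23.1, 20.8 and 21.8 CPM in PBS and at 10.5, 20.5, 13.8 and 13.7 CPM in the treated libraries. It fell by 0.73 (SE 0.161, adjusted p = 0.0312), again lost in 6 of those fits (adjusted p = 0.141 without replicate 3 of the treated group). ID3, an inhibitor of helix-loop-helix factors and a target of BMP signalling, was at 40.8, 62, 66.6 and 115 CPM in PBS and at 32.3, 30, 45.5 and 60.2 CPM in the treated libraries, lower in each replicate number (-0.71, SE 0.113, adjusted p = 0.00359).

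The lowered genes given next were lower in every replicate number, though by unequal amounts. TMEM263, a small membrane protein, was at 67.7, 60.6, 61.7 and 51.9 CPM in PBS and at 38.6, 33.8, 33.9 and 38.8 CPM in the treated libraries, a fall of 0.74 (SE 0.112, adjusted p = 0.00227). SERTAD3, a transcriptional cofactor, was at 54.5, 50.9, 48.3 and 51.9 CPM in PBS and at 29.7, 39, 34.9 and 33.6 CPM in the treated libraries. All 4 treated libraries lay below the tight PBS range, and it fell by 0.58 (SE 0.0847, adjusted p = 0.00169). TOB1, an antiproliferative adaptor of mRNA deadenylation, was at 232, 281, 247 and 268 CPM in PBS and at 189, 163, 179 and 181 CPM in the treated libraries. It fell by 0.53 (SE 0.0975, adjusted p = 0.0125, and 0.062 without replicate 2 of the treated group, 1 of 3 libraries whose removal ended the call). Of 12 tested genes of the TOB, BTG and SERTAD families, 2 fell and 1 rose, SERTAD2 at 0.52 (adjusted p = 0.0312, and 0.137 without replicate 4 of the treated group), and the median was -0.23.

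SLC30A1, which exports zinc from cells, was at 106, 113, 111 and 83.8 CPM in PBS and at 69.9, 62.5, 78.9 and 70.9 CPM in the treated libraries. It fell by 0.55 (SE 0.0886, adjusted p = 0.00396) and was the 1 call among 9 tested zinc-handling genes (median -0.08). SOCS6, an adaptor that targets receptor kinases for degradation, was at 79.7, 74.6, 78 and 59.9 CPM in PBS and at 54.1, 56.4, 51.7 and 47.6 CPM in the treated libraries, a fall of 0.47 (SE 0.0746, adjusted p = 0.00346). It was the 1 call of 7 tested SOCS genes (median -0.18), and SOCS3 was at -0.86 (adjusted p = 0.185). DNAJB9, a chaperone of the endoplasmic reticulum, went from 40.3 to 62.4 CPM in PBS to 28.8 to 39.3 CPM, a fall of 0.63 (SE 0.119, adjusted p = 0.0138), lost in 3 of the 8 fits that left out 1 library (adjusted p = 0.0639 without PBS replicate 3).

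Among the other lowered genes with the largest falls, CDC42EP3, an effector of the GTPase CDC42, fell by 0.67, TMEM170A, a membrane protein of the nuclear envelope, by 0.65, ETNK1 by 0.62, SNX16 by 0.62, TMEM65 by 0.62 and CCDC126 by 0.61. Their adjusted p-values rose above the threshold when single libraries were left out, to as much as 0.216 for TMEM65 without PBS replicate 3. SKIL, a repressor of TGF-beta signalling, fell by 0.53 (adjusted p = 0.0287, and 0.176 without PBS replicate 3), and with ID3 it made 2 lowered genes of 20 tested YAP and TGF-beta targets (median -0.12). DNAJB4, a cytosolic chaperone, fell by 0.49 (adjusted p = 0.0312, and 0.144 without replicate 2 of the treated group), the 1 call of 17 tested heat-shock and chaperone genes (median -0.08). Lists without a call were 16 EGF receptor genes (median -0.11), 21 ATF4 stress targets (0.04), 10 genes of the aryl hydrocarbon receptor (-0.03) and 18 clock genes (-0.13). With 1.61% of all tested genes called, no call is common in lists of these sizes.

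**Figure D4:**
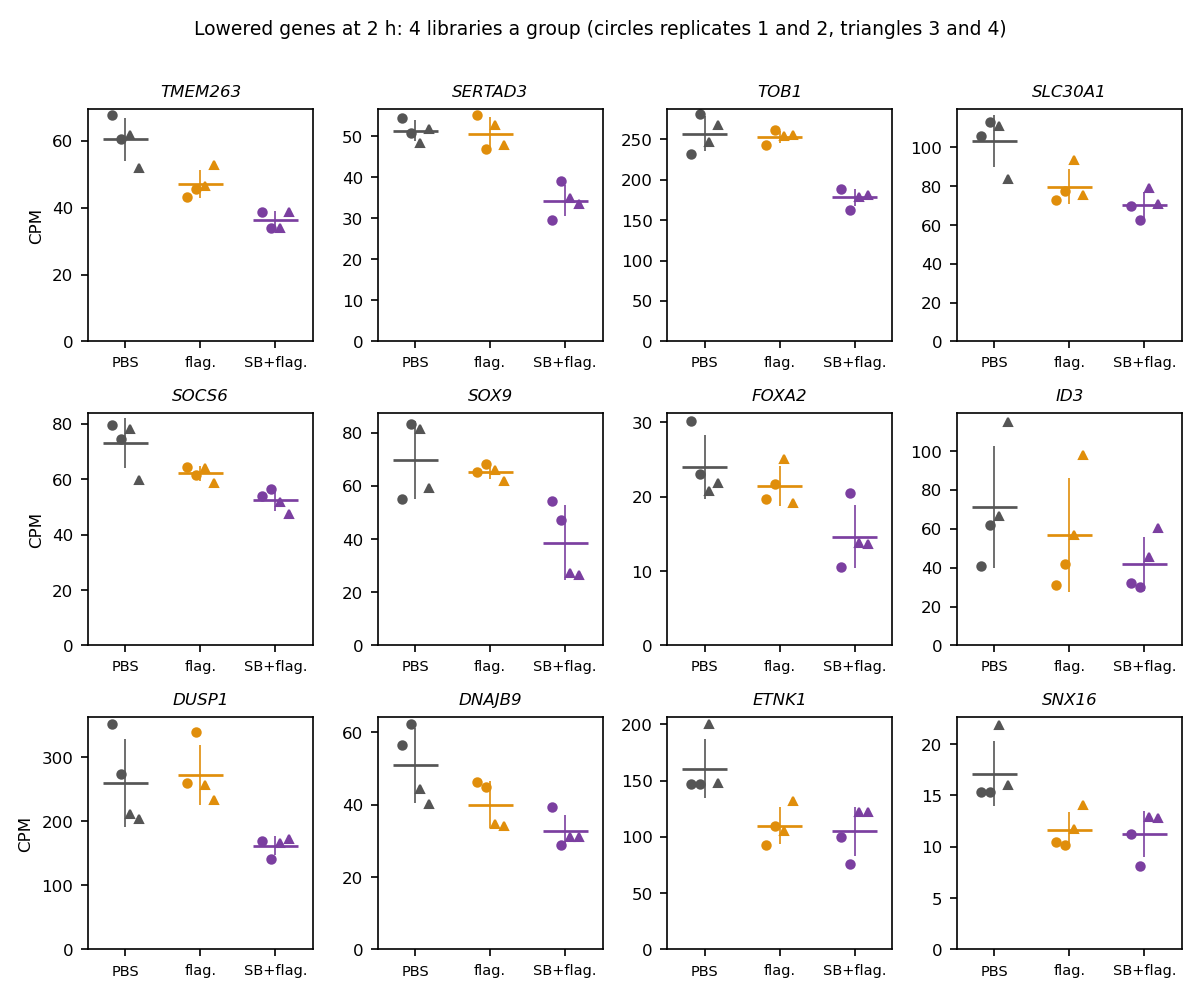
Level in CPM (linear axis from 0) of 12 lowered genes in each of the 4 libraries given PBS, flagellin (flag.) or SB203580 plus flagellin (SB+flag.) for 2 h, with the mean as a line and 1 SD as a bar. SERTAD3 and TOB1 are at PBS levels with flagellin alone and lower in all 4 libraries with the inhibitor, and replicate 3 of PBS stands high in ETNK1 and SNX16.

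Cell composition markers gave few calls. None of the 17 tested ciliated, 11 secretory, 10 goblet, 8 basal, 10 squamous, 4 ionocyte, 12 proliferation, 10 fibroblast and muscle or 5 endothelial markers was called, but the median log2 fold change was -0.67 for ciliated, -0.34 for proliferation and -0.23 for secretory markers, with overlapping ranges between the groups. In bulk RNA, fewer cells of a type and less RNA per cell cannot be told apart. The share of counts from mitochondrial genes was 3.35 to 6.15% in PBS and 3.93 to 5.54% in the treated libraries. PBS replicate 2 and replicate 1 of SB203580 plus flagellin stood apart in secretory markers within replicates 1 and 2 only. In replicates 3 and 4 the mean log2 CPM of these markers was lower still, at 4.01 to 4.66. Without those 2 libraries, 91 genes were raised and 31 lowered, and 37 of the 58 named calls were made. This alternative was chosen after seeing the data. The part of cell composition in the calls was otherwise not tested.

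The same genes can be read against flagellin without the inhibitor. That comparison shares the 4 PBS libraries, so its values are given side by side and no overlap is drawn from them. Flagellin alone against PBS called 262 of 14172 genes (1.85%), 168 raised (1.19%) and 94 lowered (0.663%). The median log2 fold change was 1.07 with flagellin against 0.65 with SB203580 plus flagellin over the 21 NF-kB feedback genes, 1.85 against 1.24 over the 17 cytokines and 0.43 against 0.34 over the 15 chemokines. CXCL8 was at 4.35 with flagellin and 3.78 with the inhibitor added, CXCL2 at 4.50 and 3.34, CCL20 at 4.72 and 3.58, and CD83 at 4.16 and 3.26. TNFAIP2 was at 3.06 and 2.86, MAP3K8 at 2.46 and 2.34, and KLHL38 at 2.11 and 2.93.

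Whether the stimulated groups differed was tested directly, SB203580 plus flagellin against flagellin, and 25 of 14172 genes (0.176%) were called, 4 higher (0.0282%) and 21 lower (0.148%) with the inhibitor. At an unadjusted p under 0.05 there were 993 genes. The direct test was fitted under the replicate block only, so how far its calls depend on the block was not tested. In the comparison with PBS, leaving out the block left 19 raised and 7 lowered genes. Of the 120 genes raised against PBS, 6 were called lower than with flagellin alone and 2 higher, and of the 108 lowered genes 3 were called lower. For the other genes the direct test missed its threshold, which does not show that the groups were alike. CXCL8 differed by -0.57 (SE 0.358, adjusted p = 0.875), NFKBIA by -0.60 (SE 0.212, adjusted p = 0.466) and CSF1 by 0.21 (SE 0.206, adjusted p = 0.974).

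Among raised genes, TNFAIP3 was at 1450, 1460, 1180 and 941 CPM in the flagellin libraries, above every library with the inhibitor, and the direct difference was -0.93 (SE 0.134, adjusted p = 0.01). IL1A was at 321, 299, 353 and 310 CPM with flagellin, likewise higher in each library (-1.01, SE 0.147, adjusted p = 0.01). PLAUR, at 161, 175, 168 and 185 CPM with flagellin, was also lower with the inhibitor (-0.95, adjusted p = 0.01). IRF1 at 220, 199, 177 and 148 CPM also differed (-0.69, SE 0.117, adjusted p = 0.0245), as did RND1 at 254, 226, 131 and 110 CPM (-1.24, SE 0.232, adjusted p = 0.0497). All of these stayed above PBS with the inhibitor. The sixth, ITPKC, a kinase of inositol phosphate signalling named after its values were seen, was at 1.13 against PBS with the inhibitor and 2.00 without.

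A further set differed from PBS with the inhibitor and not measurably with flagellin alone. CBX8 was at 4.34, 3.94, 4.09 and 3.4 CPM with flagellin, which is -0.37 against PBS (adjusted p = 0.222), and the direct difference was 1.45 (SE 0.136, adjusted p = 0.000175). All 4 libraries with the inhibitor lay above all 8 others, but the same libraries chose this gene, so the order is not separate support. SERTAD3 was at 55.3, 46.9, 52.7 and 47.8 CPM with flagellin (-0.02 against PBS), and the direct difference was -0.56 (SE 0.0847, adjusted p = 0.01). TOB1 was at 243, 261, 254 and 255 CPM (-0.02 against PBS), with a direct difference of -0.51 (SE 0.0974, adjusted p = 0.0497). MIDEAS, a histone deacetylase complex subunit, was 0.65 higher (adjusted p = 0.0451) and COQ10B, a coenzyme Q-binding protein, 0.48 lower (log2 difference -0.48, adjusted p = 0.0324) than with flagellin, and both are named after their values were seen. For SOX9 (-0.09 with flagellin) and DUSP1 (0.09 with flagellin) the direct test missed its threshold, at adjusted p = 0.136 and 0.0661.

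ZFP36 is an example of a gene that differed between the stimulated groups and not from PBS with the inhibitor. It was at 484, 602, 364 and 230 CPM with flagellin, 0.96 above PBS (adjusted p = 0.0166), and the direct difference was -1.12 (SE 0.195, adjusted p = 0.0324).

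**Figure D5:**
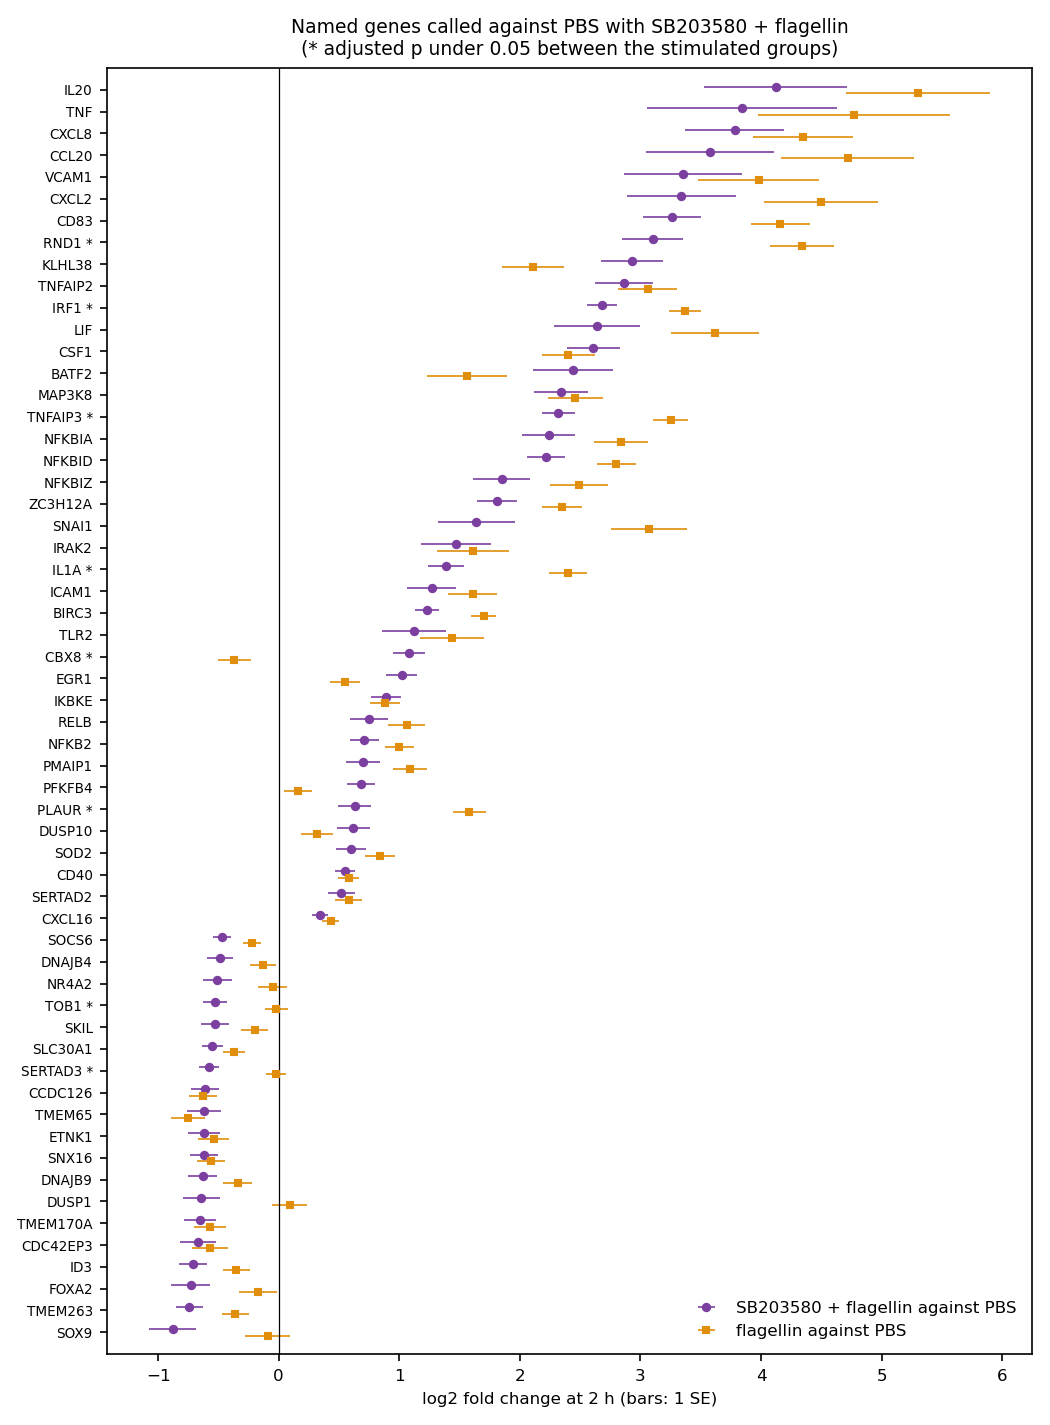
Log2 fold change at 2 h (horizontal axis, bars 1 SE) of the 58 named genes called against PBS with SB203580 plus flagellin (purple circles) beside flagellin against the same PBS libraries (orange squares). Stars mark the 8 genes whose stimulated groups differed directly, among them TNFAIP3 and IRF1, which are higher with flagellin alone, and CBX8, which is higher with the inhibitor.

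At 24 h, 28 genes were called raised (0.198% of the tested genes) and 0 lowered by edgeR between SB203580 plus flagellin and PBS. At an unadjusted p under 0.05 there were 1750 genes at 24 h and 1935 at 2 h. The change from 2 h to 24 h was tested as an interaction, which called 11 genes (0.0776%), all raised at 2 h and less so at 24 h. IRF1 was at 2.68 at 2 h and 0.70 at 24 h, a difference of 1.97 (adjusted p = 5.27e-05). TNFAIP3 was at 2.32 and 0.47 (difference 1.85, adjusted p = 0.000216), and NFKBID at 2.22 and 0.07 (difference 2.15, adjusted p = 0.000216). CD83 was at 3.26 and 1.33 (difference 1.92, adjusted p = 0.0423), and its 24 h value was the highest of the 11 genes. RND1, KLHL38, TNFAIP2 and BIRC3 also differed between the times, at an adjusted p of 0.01 each. CYP1A1, a target of the aryl hydrocarbon receptor, was at -0.23 at 2 h (adjusted p = 0.887) and at 3.01 at 24 h (adjusted p = 0.0263). Its difference between the times was not called.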

How the data were processed

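RNA of pig bronchial epithelial cultures was measured by paired-end RNA-seq in 24 libraries, of which 8 enter the comparison. The authors deposited 1 table of whole-number read counts per gene, not normalized. STAR 2.4.0a, Subread 1.4.6-p1 and featureCounts are listed, per the submitters' processing notes, with GRCm38, a mouse build, whereas the table's identifiers are pig genes. Which pig assembly was used, and whether counting used strand, is not given in the sources used here, and reads of overlapping or antisense genes cannot be told apart. Non-pig features (5988, holding 0.00131% of counts) were left out. Symbols came by identifier for 14857 genes and, for 1606 more, by overlap of at least 0.5 with exactly 1 RefSeq gene of Sscrofa11.1. No sequence tables were used.

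edgeR 4.0.16 (R 4.3.3) fitted all 24 libraries with TMM scaling, filterByExpr by group (14172 genes kept), 1 term per group and the replicate number at each time as a block, leaving 12 residual degrees of freedom. Tests were robust quasi-likelihood F tests, two-sided, with Benjamini-Hochberg adjustment over all tested genes and a call at an adjusted p under 0.05. Fold changes are log2 values and each SE is the size of the log2 value over the square root of its F. The block follows the matching of libraries by replicate number. Deviations of same-numbered libraries from their group means correlated at 0.57, 0.21, 0.73 and 0.76 for replicates 1 to 4. Within replicates 1 and 2 the other number correlated more, so their pairing is uncertain. It was 0.76 for replicate 2 of SB203580 plus flagellin with replicate 1 of PBS, and 0.67 for replicate 1 with replicate 2. Within replicates 3 and 4 the other number correlated nearly as much (0.66 and 0.68). These values set replicates 1 and 2 apart from replicates 3 and 4, but do little to show a pairing by single number. No 2 libraries of a group were duplicates (chi-square per gene 15.7 to 320). On simulated counts for 14097 genes, 72% of 2-fold and 52% of 1.5-fold changes were recovered and 6.1% of calls were false. The simulation took each treated library's means from the PBS library of the same number, and its spread from the fit. It therefore assumed the pairing, and these rates do not cover a wrong pairing.

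The text names the 20 genes raised most and the 12 lowered most among calls with a symbol, at least 1 CPM in 1 group and 1 direction in 4 of 4 replicate numbers, up to 4 called members of each list by p, and a list of genes given whatever their result. The genes, the 27 pathway lists and 10 cell type lists were chosen with earlier results of these data known. Alternatives were other blocks, fewer libraries, RLE scaling, no count filter, DESeq2 1.42.0 and leaving out libraries.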

Additional observations from a re-analysis of the deposited data

Results flagged for a closer look

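Replicate 1 of PBS stood far above the other 3 PBS libraries in 7 of the named genes. It held 3.68 CPM of TNF (others 0 to 0.469), 19 of LIF (3.8 to 6.35), 21.2 of DUSP10 (13.3 to 13.9), 20.1 of AMCF-II (3.32 to 4.8), 187 of LCN2 (29.9 to 52.7), 37.6 of SAA3 (5.44 to 8.71) and 2510 of MUC5AC (525 to 847). Replicate 3 of PBS stood above the rest in 3 lowered genes, with 200 CPM of ETNK1, a kinase of phospholipid synthesis (147 to 148), 21.9 of SNX16, a sorting nexin (15.3 to 16) and 96.3 of TMEM65, a mitochondrial membrane protein (54.9 to 59.3). Replicate 2 of PBS was low in TLR5, at 0.375 CPM (0.875 to 0.958), and replicate 2 of SB203580 plus flagellin was high in CSF3, at 1.16 CPM (0.112 to 0.172). These are 12 of 148 groups of 4 examined by Dixon's criterion, which chance meets in about 1 of 20 groups.

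The log2 fold change of SB203580 plus flagellin against PBS differed between 2 h and 24 h in 8 named genes by an interaction test in edgeR. The 2 h value exceeded the 24 h value by 1.92 for CD83, 2.53 for RND1, 2.52 for KLHL38, 2.24 for TNFAIP2, 1.97 for IRF1, 1.85 for TNFAIP3, 2.15 for NFKBID and 0.93 for BIRC3. Each time has its own PBS group.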

How the results depend on the processing

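The number of calls moved with the fit, from 120 raised and 108 lowered. It was 19 and 7 with no replicate block, 72 and 42 with the block shared over both times, 142 and 139 with a term for replicates 1 and 2 or 3 and 4, 87 and 51 from the 12 libraries of 2 h, 19 and 1 from the 8 libraries compared, 120 and 109 with RLE scaling, 117 and 74 without the count filter and 231 and 269 with DESeq2. Leaving out 1 library gave 49 to 110 raised and 12 to 125 lowered genes, lowest without PBS replicate 3. The counts moved by over 1.5 times also without replicates 2 (72 and 22), 3 (53 and 15) and 4 (51 and 28) of SB203580 plus flagellin, and for lowered genes without replicates 1 (44) and 2 (47) of PBS. Replicates 3 and 4 alone gave 172 and 90. Replicates 1 and 2 alone gave 9 and 0 in edgeR, with 656 genes at an unadjusted p under 0.05. Leaving out PBS replicate 2 and replicate 1 of SB203580 plus flagellin, which were lower in secretory markers within replicates 1 and 2 only, gave 91 and 31. The cause was otherwise not tested.

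Of 19 alternatives, IRF1, TNFAIP3, NFKBID and CD83 were called in all, and 33 of the 58 named calls held in each of the 8 fits that left out 1 library. The 58 gave 764 values past the threshold and 337 in the same direction but not past it, with 0 reversed. Among named genes without a call, 12 values passed and 15 changed sign. Leaving out 1 library moved CSF3 between -0.25 and 1.33, LCN2 between -0.47 and 0.31, MUC5AC between -0.64 and 0.03, TLR5 between -0.01 and 0.40 and CYP1A1 between -0.66 and 0.25. LCN2 was at 0.31 and 0.05 without PBS replicates 1 and 4, 0.04 without replicate 1 of SB203580 plus flagellin and 0.07 in replicates 1 and 2. CYP1A1 was at 0.08 and 0.25 without PBS replicates 2 and 3 and 0.01 in replicates 1 and 2. It was at 0.02 without both PBS replicate 2 and replicate 1 of SB203580 plus flagellin. CSF3 was at -0.25 and TLR5 at -0.01 without PBS replicate 2, MUC5AC at 0.03 without PBS replicate 3 and 0.04 in replicates 1 and 2, and ZFP36, JUNB and MAPK14 at 0.05, 0.02 and -0.02 in replicates 1 and 2. For the lists, 159 of 513 numbers of called members moved by over 1.5 times, and 28 of 513 medians moved. Comparisons with flagellin and with 24 h were fitted under the block only. Levels near the floor (IL20, TNF, VCAM1) limit their fold changes.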

Other observations

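Several calls outside the pathways described were chosen after their values were seen. TXNIP, a glucose-sensitive inhibitor of thioredoxin, was at 637, 754, 516 and 411 CPM in PBS and at 1370, 1300, 1030 and 948 CPM with SB203580 plus flagellin, a rise of 1.03 (SE 0.0959, adjusted p = 1.33e-05). STAT5A, a transcription factor of cytokine receptors, rose by 0.99 (adjusted p = 5.89e-05), from 15.5 to 19.9 CPM to 30.3 to 40.2 CPM, and its paralog STAT5B by 0.49 (adjusted p = 0.0195). TXNIP and STAT5A were also among the 11 genes whose rise was larger at 2 h than at 24 h, by 0.77 and 0.98.

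Signalling receptors and ligands among the raised genes included EDN1, the peptide endothelin-1, at 0.90 (adjusted p = 0.0128), ADORA2A, an adenosine receptor, at 1.48 (adjusted p = 0.0343), and IFNAR2, a chain of the type I interferon receptor, at 0.76 (adjusted p = 0.018). IFNAR2 was at 88.4, 93.6, 175 and 186 CPM in the treated libraries and at 62.3 to 82.7 CPM in PBS, so its rise was small in replicates 1 and 2. Among lowered genes, INSIG2, which restrains sterol synthesis, fell by 0.60 (adjusted p = 0.00209), and BCL6, a transcriptional repressor, by 0.44 (adjusted p = 0.0204).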
